A study of Drosophila melanogaster with 2 samples.

Results

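The genes described here are 6 loci for proteins that fold and open promoter chromatin in Drosophila melanogaster: Cp190, Chro, pzg, mod(mdg4), Trl and Dref. They were taken by name, out of 18277 annotated genes on the 7 chromosome arms, and every peak of CG17328 binding whose summit lay in the gene or within 5 kb on either side of it was collected. CG17328 encodes a protein with zinc fingers. That protein, fused to enhanced green fluorescent protein (eGFP) in a transgenic line, was precipitated with an antibody against GFP from whole embryos aged 0 to 24 h, and the DNA was sequenced (ChIP-seq). There were 2 biological replicates of this 1 group, which share the transgene, the age and the antibody, and no library without the fusion was analysed here. Whole embryos of this age mix all tissues and stages, so a peak cannot be given to a cell type.

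Insulator sites of the fly are bound by DNA-binding proteins that recruit shared cofactors. CP190, the product of Cp190, is such a cofactor with a BTB domain, and so are the many proteins of mod(mdg4), which carry 1 common BTB domain and differ in their C-terminal ends because their messengers are joined by trans-splicing. Chromator, from Chro, is a chromodomain protein, and pzg (putzig) encodes the zinc-finger protein Z4; both sit at decondensed interbands of polytene chromosomes. Trl encodes GAGA factor, which binds GA repeats and helps to keep promoters open. Dref encodes the DNA replication-related element factor, which binds the palindrome TATCGATA (the DRE) at promoters of housekeeping and proliferation genes.

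The pooled list that the authors called conservative held 5807 peaks with a median signal of 94.5 and a median width of 316 bp. The signal is the authors' value for each peak, a number for which no unit is stated. The replicates' own lists held 3713 and 4216 peaks, with median signals of 60.2 and 68.0. The lists carry no read counts, so the sequencing depth behind each value is unknown, and with 1 group of 2 samples no test between groups was possible. All pooled values are the authors' and have no error of their own, so the value in each replicate is given beside them.

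All 6 genes had a CG17328 peak, and 5 of the 6 had one at a start site of their own, which was the case at 17% of all genes. Chro carried the peak of highest signal in the set, at rank 14 of the 5807. Trl and mod(mdg4) carried 5 peaks each, Chro 2, and Cp190, pzg and Dref 1 each. A peak in the gene or its 5 kb flanks was found at 48.1% of all annotated genes and at 51.2% of the protein-coding ones, so that the count of 6 of 6 is read against a common event. A peak within 500 bp of a start site was found at 20.1% of protein-coding genes. The gene without one was mod(mdg4).

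The 15 peaks lay in 117.065 kb, or 0.128 peaks per kb, against 0.0573 per kb over the regions of all protein-coding genes and 0.0422 per kb over the arms. By gene the density was 0.216 at Trl, 0.137 at mod(mdg4) and 0.131 at Chro. It was lower at Dref (0.0764), pzg (0.0704) and Cp190 (0.0675). The strongest peak of a gene had a median signal of 508 over the 6 genes and of 130 over all genes with a peak. For promoter peaks the medians were 289 over 5 genes and 109 over all genes with one. A peak at least as strong as that of Chro was found at 0.312% of all genes. The same share was 1.42% for Trl, 2.38% for mod(mdg4), 4.19% for Cp190, 11.3% for Dref and 27.2% for pzg. For mod(mdg4) the peak used lay outside the gene, 212 bp before the start of its neighbour tin, and the median of 508 also rests on it. The strongest peak inside mod(mdg4) had a signal of 164. The 6 genes were chosen with results of these data known, so the medians describe them and are no test.

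The order of the genes by their strongest peak was Chro, Trl, mod(mdg4), Cp190, Dref, pzg in the pooled list and in each replicate. In replicate 1 these peaks had signals of 596, 312, 269, 190, 99.4 and 53.4 in that order. In replicate 2 they had 794, 414, 304, 230, 139 and 73.3. The replicate values of neighbours in this order did not overlap for any pair, but 2 values for each gene do not measure a spread. The pooled list derives from the same 2 replicates, so its order is not independent of theirs. The place of mod(mdg4) in the order rests on the peak beside tin. No label or header states that the replicates share a scale of signal.

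**Figure D1:**
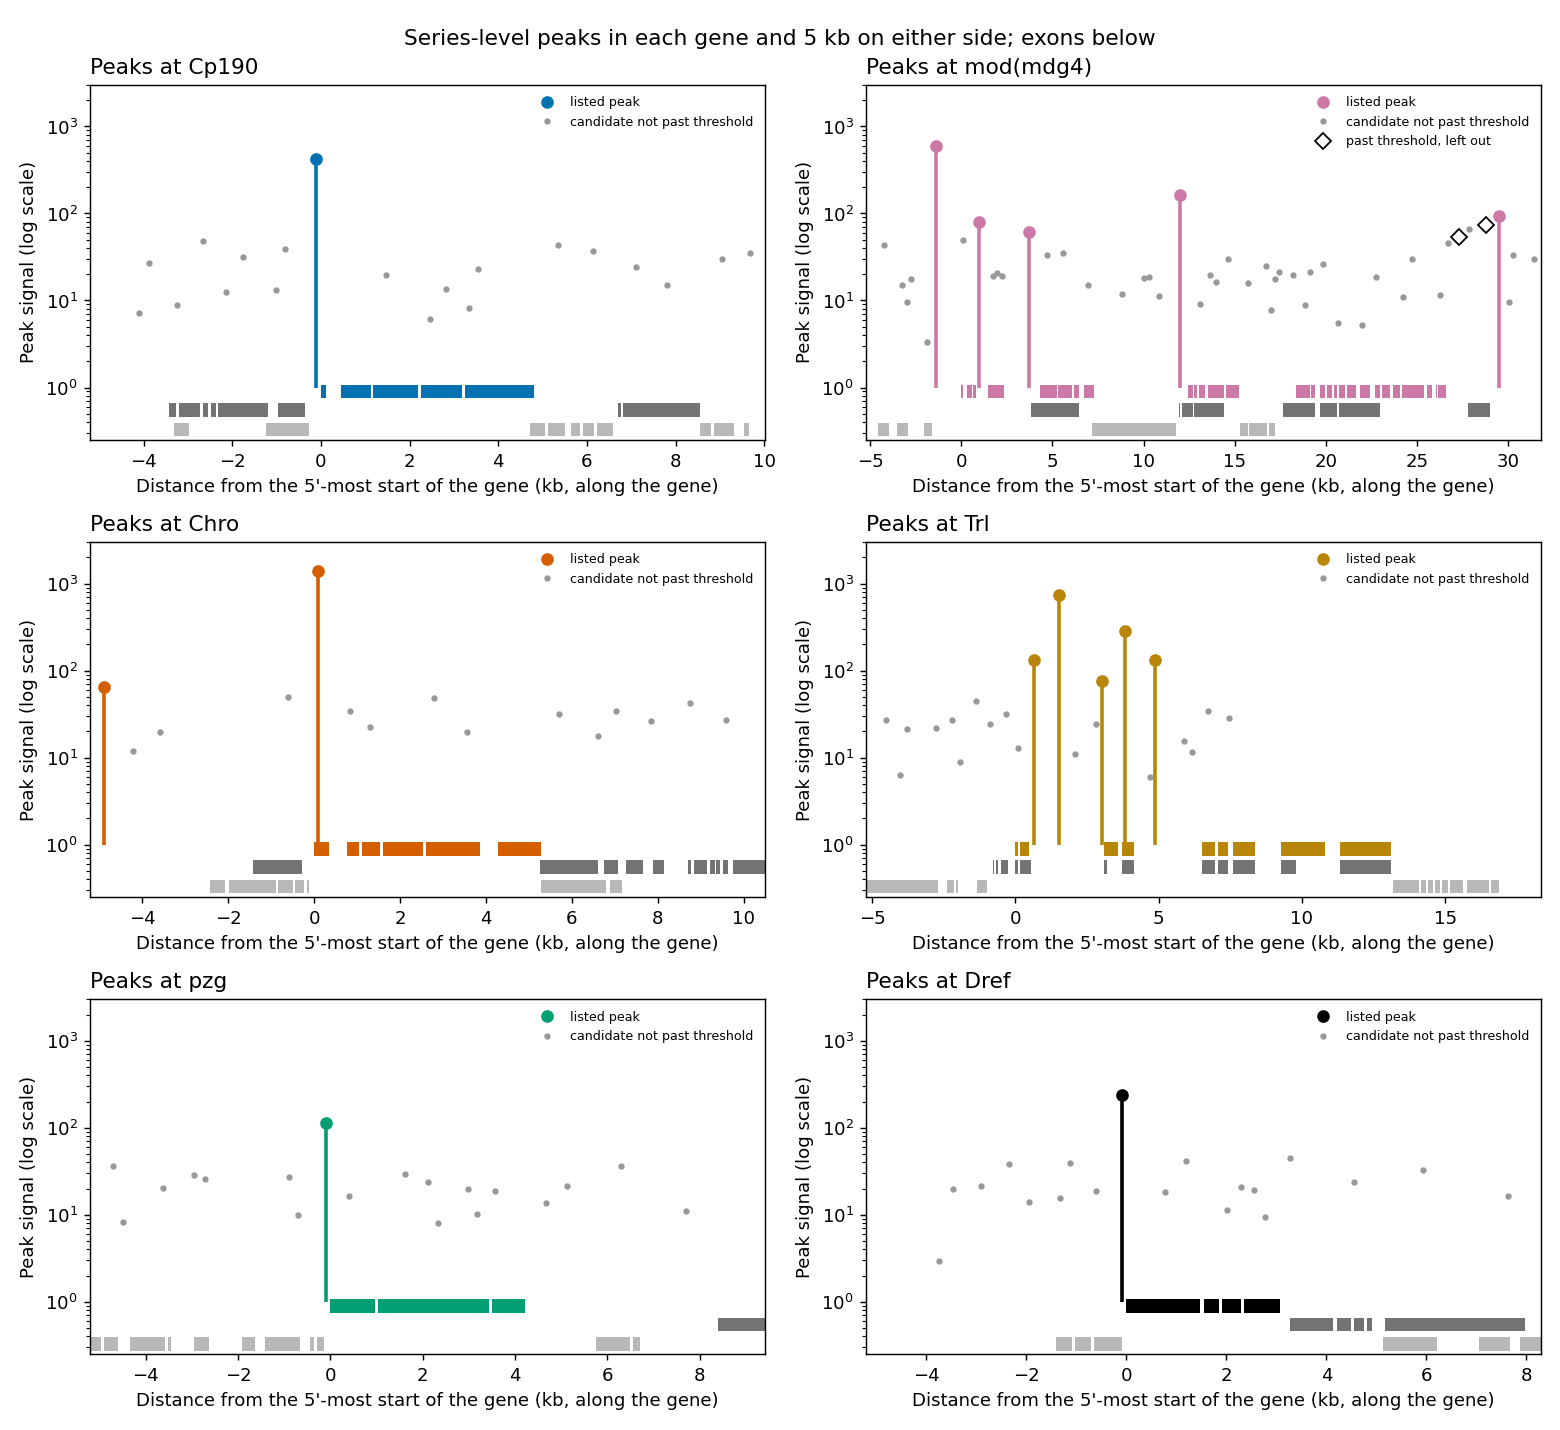
Peak signal (vertical axis, log scale, no unit) against distance from the 5′-most start of each gene in kb along the gene, with 1 panel for each of the 6 genes. Coloured points with stems are the 15 listed peaks, small grey points are pooled candidates that did not pass the authors' threshold, open diamonds are the 2 that passed it and were not listed, and the bars below are exons of the gene (colour), of other genes on its strand (dark grey) and on the other strand (light grey). Cp190, pzg and Dref show 1 peak at the start of the gene, while the 5 peaks of Trl lie from 655 to 4882 bp inside it.

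The sequences under the strongest peak of each gene differed in base composition and in part in the words they held. Each run is the plus strand of the dm6 assembly (RefSeq copy of Release 6) and is shown because it carries the strongest signal of its gene. The windows are 101 bp long and centred on the summit, except where annotated untranslated sequence shortened them. The Dref run is cut at its right end, and its summit is at 9967320. Capitals mark a searched word or its reverse complement, control words aside, and here they are CGATA at Chro and TAAGCTA at Cp190 and mod(mdg4). The full 101 bp window of Chro also held TAAGCTA, from -45 to -39 of the summit, outside the shortened run shown.
Cp190, chr3R:15275297-15275397: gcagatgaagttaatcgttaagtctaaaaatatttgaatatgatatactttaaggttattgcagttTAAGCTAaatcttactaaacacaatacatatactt
Chro, chr3L:22878880-22878909: tgtattgcctgtCGATAgctttaaactaac
pzg, chr3L:21285944-21286044: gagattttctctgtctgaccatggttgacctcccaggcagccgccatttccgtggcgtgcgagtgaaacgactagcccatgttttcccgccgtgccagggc
mod(mdg4), chr3R:21378715-21378815: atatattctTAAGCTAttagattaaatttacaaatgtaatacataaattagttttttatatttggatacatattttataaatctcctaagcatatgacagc
Trl, chr3L:14759462-14759562: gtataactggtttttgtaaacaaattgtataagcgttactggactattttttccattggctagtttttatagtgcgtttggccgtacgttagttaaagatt
Dref, chr2L:9967270-9967342: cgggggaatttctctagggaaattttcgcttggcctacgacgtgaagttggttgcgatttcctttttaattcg

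The G+C content of the 101 bp around these summits was 19.8% at mod(mdg4), 24.8% at Cp190, 32.7% at Trl, 33.7% at Chro, 41.6% at Dref and 59.4% at pzg. Over all 5802 summits on the arms the median was 33.7%, with quartiles of 27.7 and 42.6%. The windows of mod(mdg4) and Cp190 were thus below the lower quartile, and that of pzg above the upper one. Over all 15 peaks of the 6 genes the median was 36.6%.

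Chro (FBgn0044324, minus strand, chr3L:22873702-22878984) had its strong peak at chr3L:22878745-22879043. The summit lay 90 bp inside the gene, in the 5′ untranslated region, and 126 bp before a second start site that 3 of the 5 transcripts use. The pooled signal was 1384, with 596 in replicate 1 and 794 in replicate 2. In the replicates' own thresholded lists the peak ranked 15 and 12. On the opposite strand Ssl1, a subunit gene of the transcription factor TFIIH, starts 105 bp from the first start of Chro, and the summit lay 195 bp before it. The third start site of Chro, used by 1 transcript, had a candidate of signal 34.0 at 36 bp, with an irreproducible discovery rate (IDR) of 0.129. The IDR measures how poorly a peak recurs when sets of peaks are compared, and the authors' lists keep values up to 0.01. The other listed peak of the region, chr3L:22883706-22884021, lay 4880 bp before Chro in an intron of slif, an amino acid transporter gene. Its signal was 64.9, with 34.3 and 27.1 in the replicates, neither of them in a thresholded list.

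Cp190 (FBgn0000283, minus strand, chr3R:15270432-15275241) had 1 peak, at chr3R:15275277-15275510. The summit lay 106 bp before the start of Cp190 and 175 bp before that of CG4338 on the other strand, between start sites that are 281 bp apart. The pooled signal was 427, with 190 in replicate 1 and 230 in replicate 2, both in the thresholded lists. The second start of Cp190, inside the gene, was 557 bp downstream of the same summit.

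The pzg gene (FBgn0259785, plus strand, chr3L:21286099-21290310) also had 1 peak, at chr3L:21285836-21286151. The summit lay 105 bp before pzg and 32 bp before CG12974, whose start is 137 bp away on the other strand. Its signal of 114 was the lowest among the strongest peaks of the 6 genes, with 53.4 and 73.3 in the replicates. The peak was in the thresholded list of each replicate, and it ranked 2266 of 5807.

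Dref (FBgn0015664, minus strand, chr2L:9964147-9967229) shares its start region with RpL13, a ribosomal protein gene on the other strand whose start is 84 bp away. The only peak, chr2L:9967240-9967392, had its summit 91 bp before Dref and 7 bp inside the 5′ untranslated region of RpL13. The pooled signal was 236, with 99.4 in replicate 1 and 139 in replicate 2, both in the thresholded lists. The summit therefore lay nearer to the start of RpL13 than to that of Dref.

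The promoter peaks of Cp190, Chro, pzg and Dref each had start sites on both strands within 500 bp, so none can be given to 1 gene of its pair by position. Among the 2499 promoter peaks of the whole list, 802 (32.1%) had start sites on both strands. At Cp190 and pzg the summit lay between the paired start sites, and at Chro and Dref it lay in an untranslated region of one of the pair.

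Trl (FBgn0013263, minus strand, chr3L:14747929-14761049) had the densest group, 5 peaks in 23.121 kb. The strongest, chr3L:14759363-14759666, lay 1537 bp inside the gene in an intron, away from every annotated start. Its pooled signal was 740.2, with 312 in replicate 1 and 414 in replicate 2. The next in strength, chr3L:14757113-14757292, had a pooled signal of 289, with 124 and 168 in the replicates, and lay 126 bp inside the transcript that starts at 14757336. Both peaks were in the thresholded list of each replicate.

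The other 3 peaks of Trl were less even between the replicates. The peak at chr3L:14760236-14760551, 655 bp inside the gene, had 30.3 in replicate 1 and 96.3 in replicate 2, and was thresholded only in replicate 2. This was a ratio of 3.18, the highest of the 15 peaks. The intronic peak at chr3L:14756009-14756324 had 54.8 and 79.4 and was likewise thresholded only in replicate 2. Their pooled signals were both 131.9. The peak at chr3L:14757862-14758177, 58 bp before the start that 7 of the 10 Trl transcripts and CG42507 share, had a pooled signal of 76.2. It measured 40.7 in replicate 1 and 26.8 in replicate 2, where the summit was 167 bp away, was thresholded in neither, and was missing from the other pooled list of the authors. The 5′-most start of Trl, used by 1 transcript, had no listed peak, and its nearest candidate had a signal of 13.1 and an IDR of 0.845. The promoter call of Trl thus rested on internal start sites.

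The 3′ part of Trl had no candidate at all. In the ranked list behind the conservative one, no summit lay between 14753584, which is 7.465 kb inside the gene, and 14734264, past its 3′ end, a distance of 19.3 kb. The same stretch was empty over 18.7 kb in the other pooled ranking, 15.9 kb in replicate 1 and 18.7 kb in replicate 2. Candidates on 3L were a median of 650 bp apart in the first of these lists, and 0.414% of its gaps on the arm were as long. No signal was thus available for the last exons of Trl and its 3′ flank, and what empties the stretch was not tested.

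**Figure D2:**
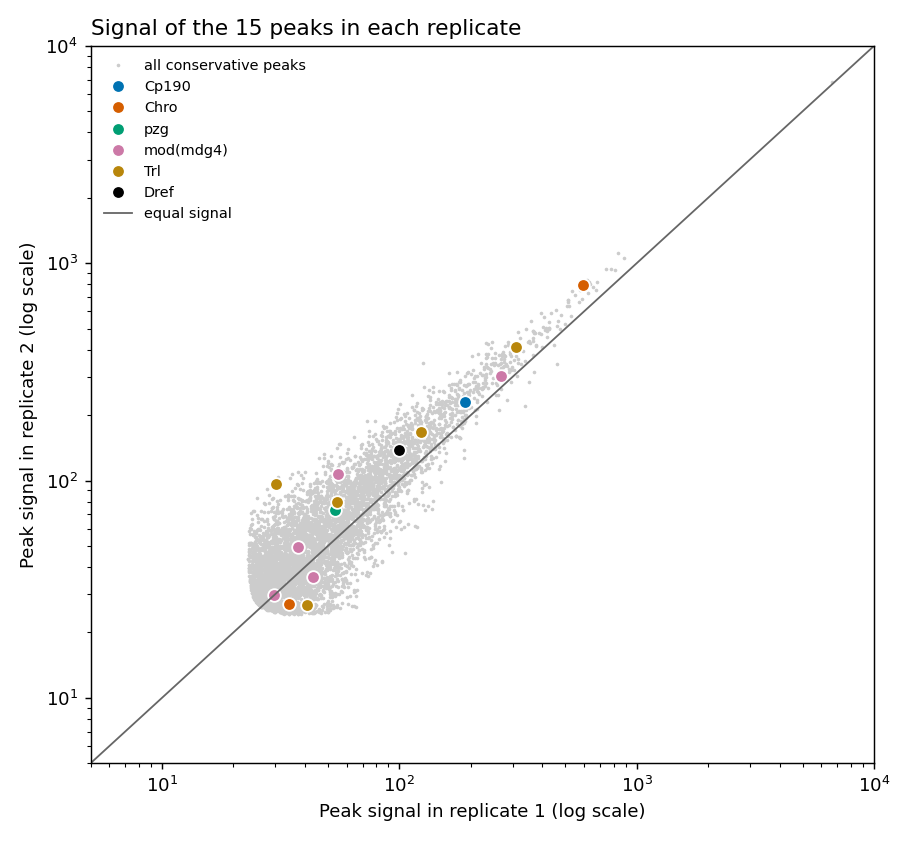
Peak signal in replicate 1 (horizontal axis) against replicate 2 (vertical axis), both on log scales without a unit, for the 15 peaks of the 6 genes (coloured) and all conservative peaks (grey); the line marks equal signal. The peak of Chro sits at 596 and 794, near the upper end of the cloud, and the Trl peak at 30.3 and 96.3 lies farthest above the line among the coloured points.

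Over the 15 peaks the signal in replicate 2 divided by that in replicate 1 had a median of 1.33 and ran from 0.657 to 3.18. Over the 5746 conservative peaks with a candidate in each replicate the median was 1.19, with quartiles of 0.963 and 1.46. Of the 15 peaks, 9 overlapped a thresholded peak in both replicates. A further 2 were thresholded in replicate 2 only, 1 in replicate 1 only, and 3 in no replicate. The same shares over all conservative peaks were not counted, so these counts are not read as a trait of the 6 genes. The replicates' thresholded lists are shorter, with 3713 and 4216 peaks against 5807. Each of the 15 overlapped a candidate in the ranked list of both replicates. The 3 in neither thresholded list were those at slif beside Chro, at the 7-transcript start of Trl and at 3730 bp inside mod(mdg4), with pooled signals of 64.9, 76.2 and 60.7.

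The mod(mdg4) gene (FBgn0002781, minus strand, chr3R:21350846-21377401) had 5 peaks and none at its own start. All 22 of its annotated transcripts begin at 21377401. A candidate lay 86 bp inside that start, with a pooled signal of 49.0, an IDR of 0.0416 and signals of 34.5 and 20.5 in the replicates, and it was in no thresholded list. Its strongest peak, chr3R:21378651-21378893, lay 1364 bp before this start. It was at the neighbouring gene tin (tinman), which encodes a homeobox factor of heart and mesoderm, and its summit was 212 bp before the start of tin. The signal was 589, with 269 in replicate 1 and 304 in replicate 2.

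Inside mod(mdg4), a peak at chr3R:21376256-21376571 lay 987 bp from the start in an intron. Its signal was 80.5, with 43.1 in replicate 1, where it was thresholded, and 36.0 in replicate 2, where it was not. The annotation also places 23 units named pre-mod(mdg4) within the gene, which supply alternative 3′ parts for trans-splicing, at 6 start sites. Listed peaks lay within 500 bp of 4 of these start sites, which serve 13 of the 23 units, against 17% of all annotated genes. Most of these 13 units share the 1 peak described next, so they are not separate cases. The peak at chr3R:21365275-21365590 lay 55 bp inside unit E, 143 bp before units AB and C, and 176 bp before the 7 units AD, AE, U, V, W, X and Y on the opposite strand. Its pooled signal was 164, with 55.3 in replicate 1 and 107 in replicate 2, both thresholded.

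The peak at chr3R:21373513-21373828 lay 96 bp before the shared start of units AA, N and O. Its signal was 60.7, with 29.6 in replicate 1 and 29.7 in replicate 2, and it was thresholded in neither. The remaining start sites, 1 for 8 units and 1 for 2 units, had nearest candidates of signal 21.1 and 17.6, both with an IDR of 0.684. The last listed peak, chr3R:21347735-21348050, lay past the 3′ end of mod(mdg4), in an intron of its neighbour aus. Its signal was 92.8, with 37.3 and 49.2 in the replicates, and it was thresholded in both. Only the first RefSeq record of mod(mdg4) was read, and it begins at 21370101. That record may be a part of the gene, so the RefSeq span of the whole gene was not established. With that record alone this peak would lie outside the 5 kb flank.

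GA-repeat words were about as common at these summits as over the whole list. The word GAGAG, bound by GAGA factor, was searched on both strands within 50 bp of each summit and was present at 2 of the 15 summits, both of mod(mdg4). It was present at 10.5% of all 5802 summits and in 15.02% of windows of equal length centred 300 bp from a summit, so the count of 2 is near the background. The windows of those 2 peaks, the intronic one and the one past the 3′ end, are shown because they hold the word, in capitals, on the plus strand of dm6.
mod(mdg4) intron, chr3R:21376364-21376464: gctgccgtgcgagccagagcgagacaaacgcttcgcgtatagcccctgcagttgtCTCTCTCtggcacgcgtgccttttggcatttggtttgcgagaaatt
mod(mdg4) 3′ side, chr3R:21347843-21347943: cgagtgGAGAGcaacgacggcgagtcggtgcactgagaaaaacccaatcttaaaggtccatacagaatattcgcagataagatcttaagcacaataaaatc

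In the intronic window CTCTC, its reverse complement, occurs in overlapping copies 5 to 11 bp from the summit. None of the 5 summits of Trl, the gene of GAGA factor itself, held GAGAG, and neither did any of the 6 promoter windows (250 bases before to 50 after the 5′-most start), against 29.5% of all promoters. These are matches of letters, not binding measurements of GAGA factor. At Trl the 5′-most start is used by 1 of 10 transcripts, and the start that 7 of them share had no promoter window. At Chro 3 of 5 transcripts use a start that likewise had none.

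The DRE word of Dref occurred at none of the 15 summits and at 1.15% of all summits. It occurred in the promoters of Cp190 and mod(mdg4), against 7.48% of all promoters. CGATA, the short word of the insulator protein BEAF-32, which the DRE contains, was present at 1 of the 15 summits, that of the strong Chro peak, where it covers the summit base, against 13.7% of all summits. It was present in the promoters of Cp190, pzg, mod(mdg4) and Dref, against 44.3% of all promoters. The promoters with a DRE are shown on the minus strand, the strand of these genes, from 250 bases before the start to 29 after it, with the searched words in capitals except the control words of equal letters.
Cp190 promoter, chr3R:15275212-15275491: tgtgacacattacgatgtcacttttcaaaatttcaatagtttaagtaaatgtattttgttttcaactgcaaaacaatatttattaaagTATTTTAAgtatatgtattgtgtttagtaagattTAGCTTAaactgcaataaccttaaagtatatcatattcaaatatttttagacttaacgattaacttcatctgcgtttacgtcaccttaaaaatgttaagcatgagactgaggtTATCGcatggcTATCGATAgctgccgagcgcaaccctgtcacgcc
mod(mdg4) promoter, chr3R:21377372-21377651: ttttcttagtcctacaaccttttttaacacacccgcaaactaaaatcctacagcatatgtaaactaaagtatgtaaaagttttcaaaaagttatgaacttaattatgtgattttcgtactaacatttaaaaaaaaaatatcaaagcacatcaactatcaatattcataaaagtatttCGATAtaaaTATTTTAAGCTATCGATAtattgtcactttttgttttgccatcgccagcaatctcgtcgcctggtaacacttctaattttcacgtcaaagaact

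Counted from the start base as 0, the DRE of Cp190 ran from -4 to 3, across the start site, while the peak summit lay at -106. That of mod(mdg4) ran from -54 to -47, at a start that had only the candidate below the threshold. The word TATTTTAA, which earlier work on these data had picked out, was at none of the 15 summits, against 5.10% of all summits. It stood in the same pair of promoters, from -162 to -155 at Cp190 and from -64 to -57 at mod(mdg4), where it abuts the DRE through a TAAGCTA that overlaps both. Of all promoters 9.49% held TATTTTAA.

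The other words searched were GGTCACAC of M1BP, the E-box CAGCTG, CAGCNCTA of core promoter motif 7 and AGGNGGC of CTCF. None of them occurred at the 15 summits or in the 6 promoters, while 0.810%, 3.96%, 0.896% and 2.83% of all summits held them. Their shares of all promoters were 6.08%, 16.1%, 3.15% and 8.56%. As controls of equal letters, TTTTTTTT was found at the summit beside slif and in the mod(mdg4) promoter, against 7.34% of summits and 16.2% of promoters, and GCGCGCGC was found in none of them, against 0.103% and 0.492%.

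Candidates show what lay on either side of the threshold. The ranked list behind the conservative one held 142 candidates in the 6 regions, from 15 at Chro to 47 at mod(mdg4). Apart from mod(mdg4), the strongest candidate that did not pass had a signal of 48.0 at Cp190, 49.7 at Chro, 36.8 at pzg, 44.4 at Trl and 45.4 at Dref. The weakest listed peak was the one of 60.7 in mod(mdg4). At Cp190, pzg and Dref the single peaks of 427, 114 and 236 thus stood among candidates that were all under 50. At mod(mdg4) a candidate of 67.0 did not pass, although its signal was above that of the listed peak of 60.7.

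Past the 3′ end of mod(mdg4) the list and the threshold differed. Within chr3R:21348460-21350283, a stretch of 1824 bp that holds a start of aus at 21349601, 2 candidates passed the IDR threshold and were left out of the conservative list, with signals of 73.9 and 53.1. The other pooled ranking also had 2 past the threshold there, at 73.9 and 67.0. Each replicate's ranking had 1, with 51.6 and 39.9. None of the 4 thresholded lists contained a peak in this stretch. Over the arms 134 of 5936 peaks past the threshold were left out in this way, and 84 of them were on 3R. No label or header gives a reason.

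**Figure D3:**
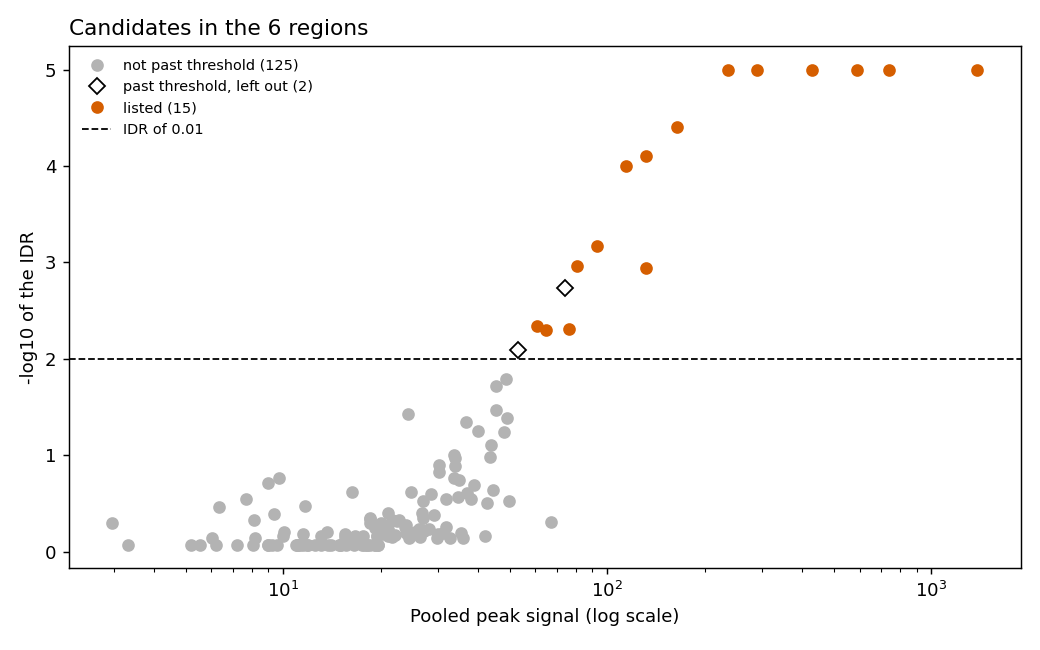
Minus log10 of the IDR (vertical axis) against pooled peak signal (horizontal axis, log scale, no unit) for the 142 candidates in the 6 regions. Filled coloured points are the 15 listed peaks, grey points did not pass the IDR of 0.01 (dashed line), and the open diamonds are the 2 candidates at 73.9 and 53.1 past the 3′ end of mod(mdg4).

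The genes next in rank to the strongest peak of each gene, among those with a promoter peak in the pooled list, were of many kinds. Next to Chro (1384) were PNPase at 1419, a mitochondrial RNA-processing enzyme gene, and lncRNA:CR44339 at 1349. Next to Trl (740.2) were Sox14 at 749, a transcription factor gene, and aay at 720.4, a phosphoserine phosphatase gene. Next to mod(mdg4) (589) were gro at 592, which encodes the corepressor Groucho, and Ptp4E at 588, a receptor tyrosine phosphatase gene. Next to Cp190 (427) were Hsp83 at 435, the Hsp90 chaperone gene, and CG17075 at 423. Dref (236.5) stood between sea at 236.8, a mitochondrial citrate carrier gene, and Hs2st at 236.3, and pzg (114.4) between lawc at 114.6 and shop at 114.3. Likeness here means only a similar signal in 1 pooled list.

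**Figure D4:**
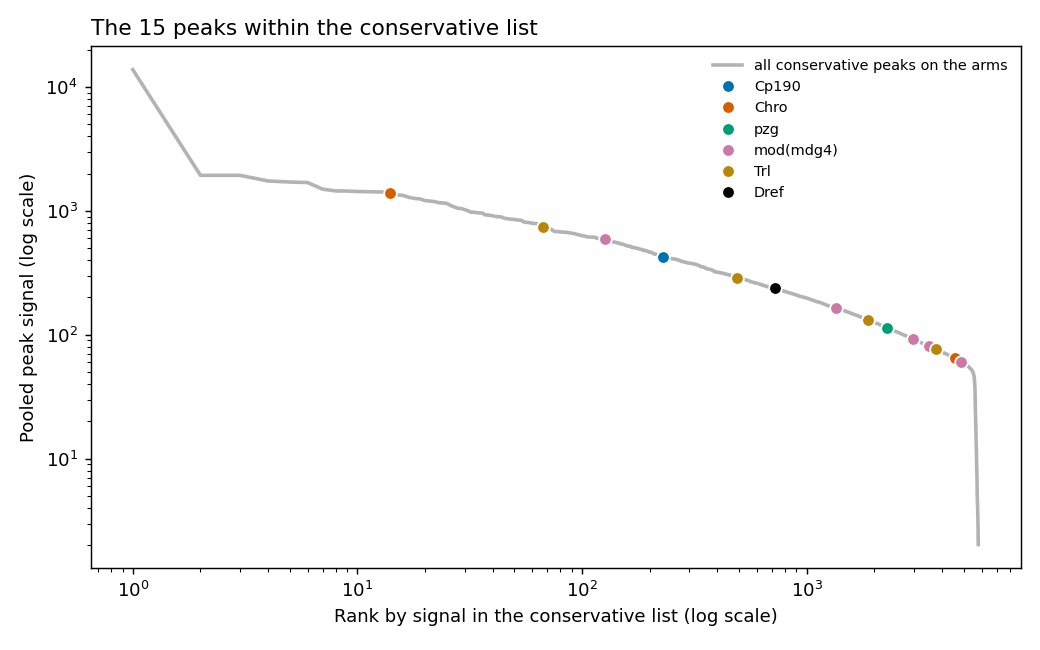
Pooled peak signal (vertical axis, log scale, no unit) against rank in the conservative list (horizontal axis, log scale), with all peaks on the arms as the grey line and the 15 peaks of the 6 genes as coloured points. The points run from rank 14 for Chro to rank 4866 for the mod(mdg4) peak of 60.7.

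Related genes were counted in 4 lists. Of 16 genes for DNA-binding partners of these proteins, 10 had a peak in the gene or its flanks and 5 at a start site, with a median strongest signal of 94.5. The highest was at phol, a Polycomb response element binding protein gene, with 890 and no promoter peak, followed by BEAF-32 with 166 and pita with 143. Ibf1 and Ibf2, for insulator binding factors, shared 1 peak of 112. Of 16 genes for chromatin and complex partners, 14 had a peak and 6 a promoter peak, with a median of 119. Caf1-55, for a histone-binding subunit of many chromatin complexes, had 1433 without a promoter peak, JIL-1, for a histone H3 kinase that works with Chromator, had 677, nej, for the acetyltransferase CBP, had 415, and shep had 362.

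All 12 genes for other BTB transcription factors had a peak, and 6 had one at a start site, with a median strongest signal of 148. The highest were rib with 341, chinmo with 206, and ab and bab1 with 181.3 each. Of 12 textbook DREF target genes for replication and the cell cycle, 8 had a peak and 2 a promoter peak, with a median of 108. RnrS, for ribonucleotide reductase, had 284 at its promoter, PCNA had 195, CycA, for cyclin A, had 138 and Gnf1 had 117. Each list is set beside the 48.1% of all genes with a peak, the 17% with a promoter peak and the median of 130, and beside 508 over the 6 genes. Region length, which rises with gene length, was not matched between the lists and all genes. These lists were chosen with results of the data known, and no list was tested.

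**Figure D5:**
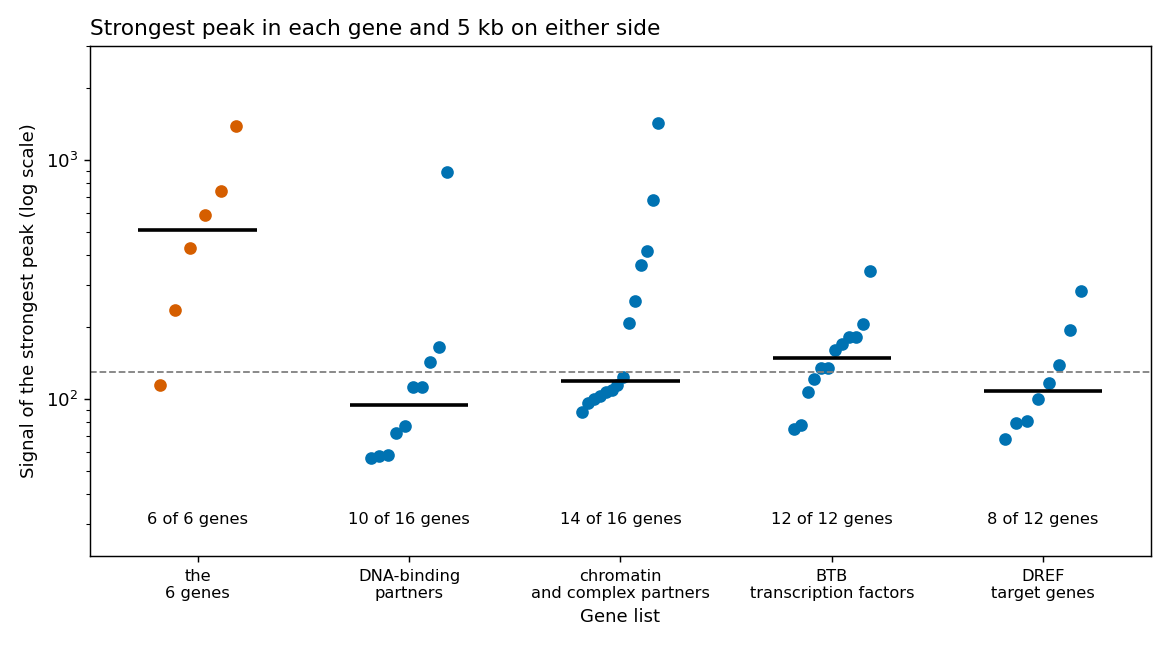
Signal of the strongest peak in each gene and its 5 kb flanks (vertical axis, log scale, no unit) for the 6 genes and the 4 lists of related genes, with 1 point for each gene that has a peak, a bar at the median and a dashed line at the median of 130 over all genes with a peak. The bar of the 6 genes is at 508, and the bars of the other lists are between 94.5 and 148.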

How the data were processed

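Anti-GFP ChIP-seq of CG17328-eGFP embryos (2 replicates, 1 group) was deposited as peak lists on dm6. Per the labels and file listings, each sample had a ranked and a thresholded list, and 2 of each came from the pooled alignments; no source used here names the aligner or the peak caller. The authors' deposited signal per peak, the deposited score, the deposited −log10 of the IDR and the deposited summit offset were used as given. Every thresholded peak had a score of at least 830. In the ranked lists, 8 signal columns that describe the compared peak sets were not used.

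From these, summits were placed on Ensembl release 115 genes with pandas 2.3.3 and NumPy 2.4.6 in Python 3.11.15; figures used matplotlib 3.10.9. A peak counted where its summit lay in the gene or 5000 bp either side. Promoter peaks had a summit within 500 bp of an annotated start of that gene. A replicate's value was the highest signal in its ranked list overlapping the pooled peak by at least 1 bp. No peak ran past a chromosome end. The rules were tested on simulated peaks. With no second group, no statistical test was made. The read depth is unknown.

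The genes named were the 6 genes, those with a start within 500 bp of their peaks, the promoter genes adjacent in rank, and up to 4 top genes of each list. The genes in whose introns a peak lay (slif, aus) were named after their values were seen. The 6 genes, the lists and TATTTTAA were chosen with earlier results of these data known, and TAAGCTA after the sequences were seen. Older symbols in the lists were matched to current ones (phol, Gnf1). The alternatives were the other pooled list, each replicate alone, the strongest 2903 peaks, other flanks, an overlap rule, and promoter windows of 250 and 1000 bp.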

Additional observations from a re-analysis of the deposited data

How the results depend on the processing

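No paired analysis was possible because there was 1 group and no contrast between groups. The 15 peaks in the 6 regions fell to 9 without flanks, and the genes with a peak from 6 to 3 (Chro, mod(mdg4) and Trl), because the peaks of Cp190, pzg and Dref lie just before their starts; 11.9% of all genes then had a peak. Under the other settings there were 10 to 19 peaks, and 6 of 6 genes had one. The share of all genes with a peak was then 32.4% for the strongest peaks, 33.9% with 2 kb flanks, 37.0 and 40.4% for the single replicates, 49.9% for the other pooled list and 63.0% with 10 kb flanks. In each replicate's own list 11 and 12 peaks were counted, which overlapped 10 and 11 of the 15 peaks. Each count includes a small peak near the start of the 7 opposite-strand units of mod(mdg4) that overlaps a stronger one of its list. The other pooled list had 15, of which 14 were the same peaks; the Trl peak of 76.2 was replaced by one of 6.03 that overlaps a stronger peak of that list. Promoter peaks were found at 5 genes under every setting but the 1000 bp window, which gave 6 (21.1% of all genes). The share of all genes with a promoter peak was 17% under the main rule and 17.8% in the other pooled list. It was 12.02% in replicate 1 alone, 13.24% in replicate 2 alone, 9.78% for the strongest peaks and 13.3% with the 250 bp window. The strongest signal was the same in the other pooled list. With 1 replicate left out it ranged from 190 to 230 at Cp190, 596 to 794 at Chro, 53.4 to 73.3 at pzg, 269 to 304 at mod(mdg4), 312 to 414 at Trl and 99.4 to 139 at Dref, below the pooled values; the cause was not tested. With 2 kb flanks the DREF target genes with a peak fell from 8 to 4 of 12, while the share of all genes fell from 48.1 to 33.9%. The DNA-binding partners then fell from 10 to 7 of 16, the chromatin and complex partners from 14 to 12 of 16, and the BTB genes stayed at 12. In the other pooled list the DNA-binding partners also fell to 7, although the share of all genes was 49.9%. The other gene lists kept their counts there. Read depth is unknown, and thresholds differ between lists in ways the files do not show.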

Other observations

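After the sequences at the 15 summits had been seen, the word TAAGCTA was counted on both strands. It lay within 50 bp of 4 of the 15 summits: those of Cp190, of the strong Chro peak, of mod(mdg4) beside tin, and of the Trl peak at chr3L:14756009-14756324. It was present at 2.24% of all 5802 summits and in 0.896% of 11604 windows of equal length centred 300 bp from a summit. Since the word was picked on these summits, its count there is a description and not a test. The Trl window is shown on the plus strand with the reverse complement of the word in capitals.
Trl, chr3L:14756117-14756217: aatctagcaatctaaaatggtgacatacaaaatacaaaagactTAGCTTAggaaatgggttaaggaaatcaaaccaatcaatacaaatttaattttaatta

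The thresholded lists held pairs of overlapping peaks whose lower members had a small median signal, although every listed peak scored at least 830. In the conservative list 197 of 5807 peaks overlapped a stronger one, with a median signal of 9.84, and none of them was among the 15 peaks. Near the start of the 7 opposite-strand units inside mod(mdg4), replicate 1 listed such a peak at 11.1 and replicate 2 one at 7.36. Both had a score of 1000.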
